A study of Mus musculus with 9 samples.

Results

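Autophagy machinery genes were followed in MIN6 cells, an insulin-producing line from a mouse insulinoma, after 24 h in medium with low, standard or high arginine, at 0.1, 1 and 20 times the standard concentration. Each medium had 3 sequenced libraries, and the labels give strain C57BL/6 and no other treatment for all 9. The members were the protein-coding rows whose symbol begins with Atg and a digit, together with 22 listed genes. The rule found 41 of the 54876 genes in the table, of which 19 matched the Atg pattern and 22 the list. One of the 41, Atg4a-ps, carries a pseudogene symbol although the table gives it as protein-coding. By step, 18 members belong to initiation, 11 to conjugation, 5 to the ATG8 family and 6 to the receptors and adaptors. Nothing in the labels says that the 3 libraries of a medium came from separate cultures, and p-values therefore reflect a spread that may be technical.

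Autophagy encloses cytoplasm in a double membrane, the autophagosome, and delivers it to the lysosome, where proteins are broken down to amino acids. The kinase mTORC1, which senses amino acids including arginine, holds the ULK complex inactive in fed cells. When that hold is released, the ULK complex and a class III PI3-kinase start the membrane, a pair of ubiquitin-like conjugation systems attach ATG8 proteins to its lipid, and receptors tie cargo to those ATG8 proteins. In beta cells autophagy removes damaged mitochondria and excess insulin granules. These data are RNA levels, and neither protein amounts nor the rate of autophagy was measured.

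Reads in genes, rebuilt from the table, numbered 21550637 to 26300872 per library. Of 9 beta cell markers 7 had a mean of at least 1 FPKM, with means of 50209 FPKM for Ins2 and 25491 FPKM for Iapp, while the glucose transporter gene Slc2a2 was near 0 at 0.0103 FPKM and Ucn3 was at 0.753 FPKM. Some beta cell markers differed between media. The transcription factor genes Pdx1, Nkx6-1 and Mafa averaged 373, 190 and 310 FPKM in low arginine, against 150, 66.3 and 247 FPKM in standard arginine. Ins1 averaged 1065 FPKM in low arginine, against 1542 FPKM in standard arginine. These 4 did not overlap, nor did Ucn3 and Slc2a2 at their low levels, while Ins2, Iapp and Slc30a8 overlapped. In high arginine Nkx6-1, Mafa and Slc30a8 averaged 78.5, 287 and 22.3 FPKM, above standard arginine without overlap (16.7 FPKM for Slc30a8). The other beta cell markers overlapped there. How often all genes separate in this way was not counted. Markers of other cells were low for acinar and ductal, fibroblast, endothelial and immune cells, whose summed lists reached at most 0.101, 0.168, 0.173 and 0.537 FPKM in any library. The delta and PP cell list moved with the medium. Its 3 genes summed to 8718 to 11313 FPKM under low, 5434 to 6207 under standard and 5721 to 5913 under high arginine, mostly Sst, while Hhex was at or near 0. The 4 alpha cell markers summed to 14.6 to 17.8, 23.5 to 29.8 and 25 to 28.3 FPKM in low, standard and high arginine. The part of these cells in the results below was not tested, and fewer cells of a type cannot be told apart from less RNA per cell.

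Autophagy genes differed widely in level. FPKM, a length-corrected read density, averaged at least 50 over the 9 libraries for 4 members, Sqstm1, Wipi1, Gabarap and Gabarapl2, and was below 5 for 15. Rb1cc1, which encodes the ULK complex scaffold FIP200, had 1.2, 0.726 and 0.824 FPKM under low, 0.677, 0.555 and 0.814 under standard and 0.899, 0.716 and 0.734 under high arginine. It therefore missed the filter of at least 1 FPKM in at least 3 libraries. Atg4a-ps also missed it, with a mean of 0.0627 FPKM under low, 0.107 under standard and 0.0681 under high arginine. The other 39 members were tested, with 132 reads (Atg10) to 48720 reads (Sqstm1) in a single library.

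The comparison of low with standard arginine asked how autophagy genes respond when arginine is scarce. Sqstm1, which encodes the cargo receptor p62, rose most, while the kinase gene Ulk2 and its partner gene Atg13 fell most on the scale of log2(FPKM + 1). Calls went in both directions within every step of the pathway except the ULK complex, where there were only falls. By limma, with a Benjamini-Hochberg adjusted p under 0.05 as the threshold, 10 of 39 tested members rose, 15 fell and 14 were not called. Among all 12300 genes tested, 30.3% rose and 31.9% fell, 62.2% together, so the number of members called was near the background. The median log2 change of the members was -0.003, against 0.001 over all genes tested. Only 6 members, Sqstm1, Atg16l2, Ulk2, Atg13, Atg9b and Pik3c3, were called with a change of at least 1.5-fold in FPKM + 1, where 19.3% of all genes were. By the ratio of mean FPKM in low to standard arginine, Atg14 was at 1.68, and Atg9b at 0.513 fell more than Atg13 at 0.581. In TPM, where the median of all genes was 0.12 higher on the log2 scale, 16 members rose and 11 fell. Of all 12300 genes 4843 rose and 3018 fell in TPM, and the share of rises among all calls was 61.6% in place of 48.7%.

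**Figure D1:**
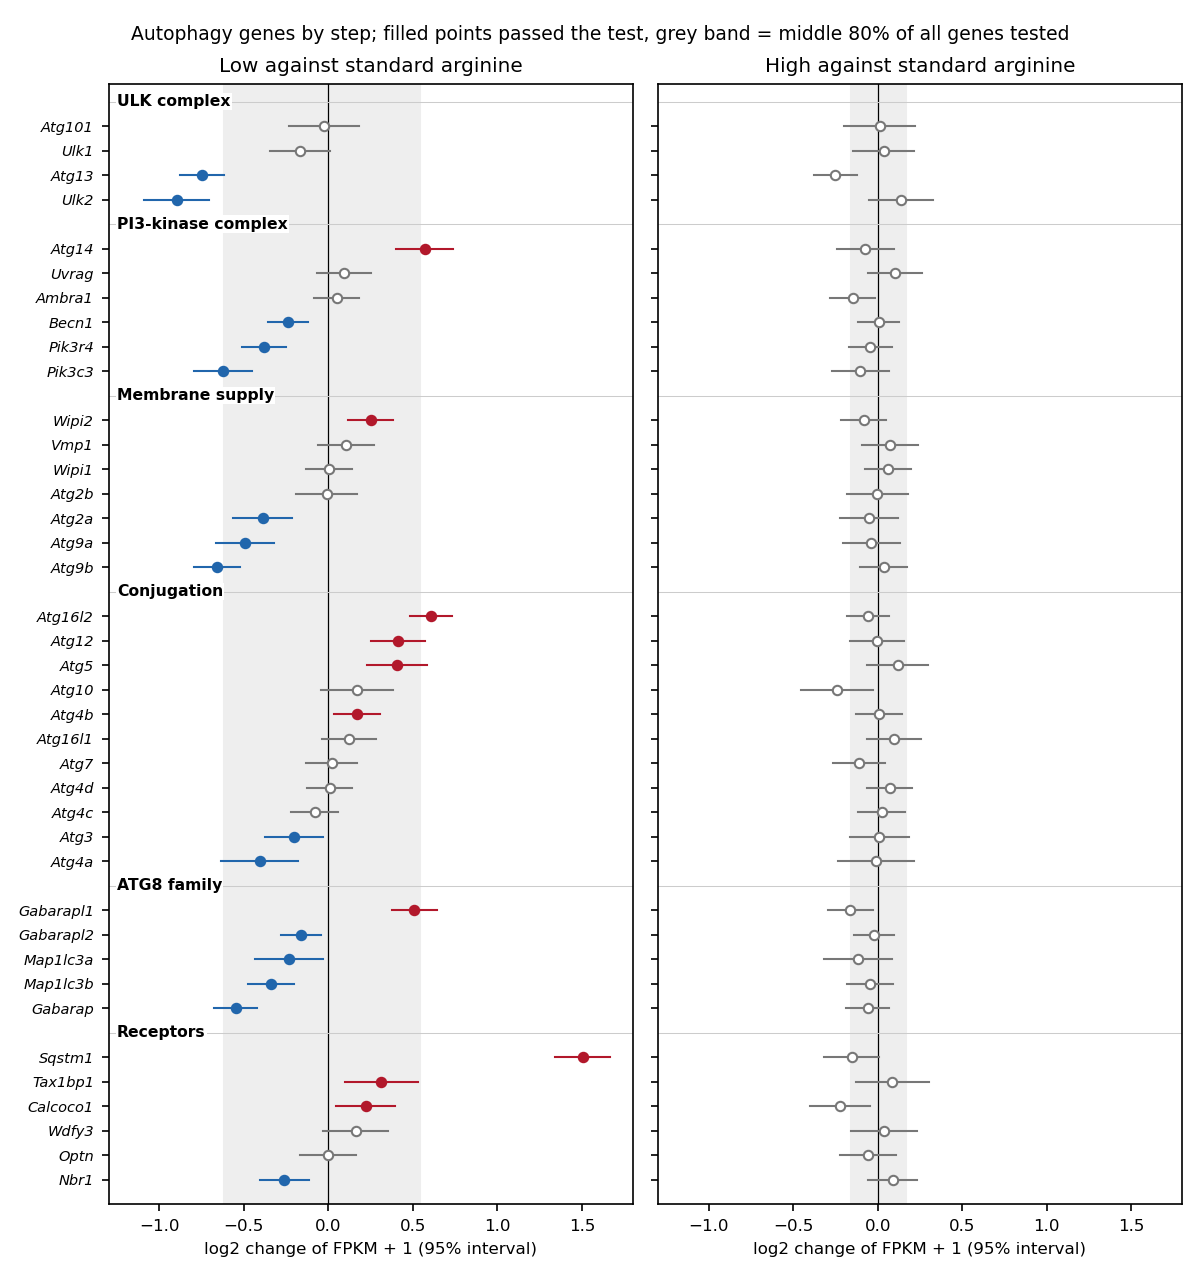
Log2 change of FPKM + 1 with its 95% interval for the 39 tested autophagy genes, by step, in low against standard (left) and high against standard arginine (right). Filled red points were called higher and filled blue points lower, open points were not called, and the grey band holds the middle 80% of all genes tested. On the left Sqstm1 stands alone at 1.5 and points lie on both sides of 0 in most steps, while on the right all lie between -0.25 and 0.14 and none is filled.

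Of the 41 members 33 had an upstream window in RefSeq (GRCm38.p6); Wdfy3, Atg4a-ps, Rb1cc1, Becn1, Atg16l1, Atg12, Map1lc3a and Pik3c3 had none. The 250 bases before each RefSeq start were searched on both strands for 4 motifs. CACGTG is the E-box at the centre of the element bound by TFEB, a master regulator of lysosome and autophagy genes. TGATGNAA is an amino acid response element of the kind bound by ATF4, TGACNNNGC the core of the antioxidant response element, and TGTTTAC a FOXO core. The windows of 5 members are shown because their genes carry the results below. Sqstm1, Gabarapl1 and Atg5 rose, Atg3 was called lower, and Ulk2 fell most. The windows of Atg5 and Atg3 hold the E-box. The call of Atg3 was lost in TPM and without single libraries, as given below. Bases inside the annotated gene were left off, motif matches are in capitals, and each runs 5′ to 3′ on the gene's strand. They lie at chr11:50210828-50211070 (minus strand), chr6:129532942-129533159 (plus), chr10:44268089-44268338 (plus), chr16:45158579-45158784 (plus) and chr11:61855093-61855342 (minus), in the order given here.
Sqstm1: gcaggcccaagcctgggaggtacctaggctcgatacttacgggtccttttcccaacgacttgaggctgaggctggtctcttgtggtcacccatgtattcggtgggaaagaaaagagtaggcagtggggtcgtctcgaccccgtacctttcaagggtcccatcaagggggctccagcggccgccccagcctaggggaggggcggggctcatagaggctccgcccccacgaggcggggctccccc
Gabarapl1: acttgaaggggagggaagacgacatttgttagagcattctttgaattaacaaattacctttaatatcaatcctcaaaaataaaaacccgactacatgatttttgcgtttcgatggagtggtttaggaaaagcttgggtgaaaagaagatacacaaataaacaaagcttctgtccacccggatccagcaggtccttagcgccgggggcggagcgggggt
Atg5: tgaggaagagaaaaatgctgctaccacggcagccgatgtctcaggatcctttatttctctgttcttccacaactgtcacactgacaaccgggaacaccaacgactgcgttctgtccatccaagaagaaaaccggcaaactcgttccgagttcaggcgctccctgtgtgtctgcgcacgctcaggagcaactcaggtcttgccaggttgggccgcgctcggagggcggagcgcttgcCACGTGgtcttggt
Atg3: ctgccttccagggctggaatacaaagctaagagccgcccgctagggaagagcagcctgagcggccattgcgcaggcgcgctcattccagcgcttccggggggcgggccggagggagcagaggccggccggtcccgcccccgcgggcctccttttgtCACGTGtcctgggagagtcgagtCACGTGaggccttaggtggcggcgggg
Ulk2: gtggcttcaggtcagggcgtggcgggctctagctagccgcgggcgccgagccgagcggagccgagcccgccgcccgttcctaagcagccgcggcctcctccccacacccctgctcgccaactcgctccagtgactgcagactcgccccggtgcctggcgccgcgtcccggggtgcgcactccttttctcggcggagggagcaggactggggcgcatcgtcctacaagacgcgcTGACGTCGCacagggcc

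Of the 33 members with a window 9 rose and 12 fell. Each of the 4 motifs searched was in 0 to 4 members, too few to show whether it marked the genes that rose or those that fell. The E-box was in the window of 3 of the 33 members, Atg3, Atg5 and Atg7, of which 1 rose, 1 fell and 1 was not called; of 27025 genes with a window, 6.86% held it. Atg3 had it at 94 and again at 71 bases before the start, and Atg5 at 14 bases. The antioxidant core was in 4 members, Atg13, Tax1bp1, Ulk2 and Vmp1, against 11.5% of genes. The windows that hold the matches of Atg7 and Tax1bp1 lie inside the annotated gene, as do some of those of Vmp1. The amino acid response element and the FOXO core were in 0 of 33 members and in 3.91% and 3.54% of genes. A match is a description of these letters only, and windows of this length leave out more distant elements.

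Of 17 tested initiation genes 2 rose, 8 fell and 7 were not called, with a median log2 change of -0.17, where 30.3% of all genes rose and 31.9% fell. In TPM 5 of them rose and 8 fell, where 4843 of all 12300 genes rose and 3018 fell. In the ULK complex, which receives the nutrient signal, 2 of 4 tested genes fell and 0 rose. Ulk2, a kinase that shares the role of ULK1 (chromosome 11, 61775649 to 61855073), had 3.01, 2.61 and 2.25 FPKM in low arginine, against 5.66, 5.50 and 6.01 FPKM in standard arginine. Every low library lay below every standard library, and the log2 change was -0.90 (SE 0.09, adjusted p 8.1e-06). Atg13, the adaptor that links the kinases to the scaffold (chromosome 2, 91674618 to 91710576), had 15.4, 16.0 and 15.9 FPKM in low arginine, against 28.0, 27.6 and 26.0 FPKM in standard arginine. Here too the groups did not overlap, with a log2 change of -0.75 (SE 0.06, adjusted p 1.8e-06).

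Ulk1, the better known of the kinases, did not pass. It averaged 8.54 ± 0.461 FPKM under low and 9.73 ± 0.993 FPKM under standard arginine (SD, n = 3 each), a log2 change of -0.17 with a 95% interval of -0.35 to 0.01. Without standard replicate 3 the value was -0.24 and was called (adjusted p 0.021), and with the replicate number as a block the adjusted p was 0.018. Atg101, which stabilises ATG13, was at -0.02 (95% interval -0.23 to 0.18). Ulk2 made up 23.4 ± 1.91% of the summed FPKM of both kinases in low and 37.1 ± 3.32% in standard arginine, so the pool shifted towards Ulk1 while its sum was 11.2 ± 0.799 against 15.5 ± 0.818 FPKM.

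In the PI3-kinase complex the core subunits fell and the subunit that directs the complex to autophagosomes rose. Pik3c3, the lipid kinase VPS34 (chromosome 18, 30272747 to 30348126), had 3.83, 4.79 and 4.87 FPKM in low arginine, against 7.35, 7.66 and 7.30 FPKM in standard arginine. Its libraries did not overlap and the log2 change was -0.62 (SE 0.08, adjusted p 4.7e-05). Pik3r4, the regulatory subunit VPS15 (chromosome 9, 105642978 to 105687657), had 3.71, 3.50 and 3.47 FPKM in low arginine, against 4.90, 4.88 and 5.02 FPKM in standard arginine. That was a log2 change of -0.38 (SE 0.06, adjusted p 0.00023), again with no overlap. Becn1, the scaffold Beclin 1, fell least, at 12.4 ± 0.303 FPKM under low and 14.8 ± 0.664 FPKM under standard arginine, a log2 change of -0.24 (SE 0.05, adjusted p 0.0029).

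Atg14 moved the other way. It defines the complex that acts at the forming autophagosome (chromosome 14, 47540893 to 47570649) and had 3.97, 4.29 and 3.88 FPKM in low arginine, against 2.19, 2.73 and 2.29 FPKM in standard arginine. All 3 low libraries were above all 3 standard libraries, and the log2 change was 0.57 (SE 0.08, adjusted p 8.3e-05). Uvrag, which takes the place of ATG14 in a complex of the endosomal route, was at 0.09 (95% interval -0.07 to 0.25). Of the summed FPKM of these alternative subunits, Atg14 held 44.3 ± 0.925% in low and 33.7 ± 1.86% in standard arginine. Ambra1, an activator of Beclin 1, was at 0.05 (95% interval -0.08 to 0.18). In TPM both were called higher, Uvrag at 0.22 (adjusted p 0.026) and Ambra1 at 0.17 (adjusted p 0.027). Uvrag is uncertain, since its longest transcript is over 95% identical to other genes in stretches such as 345 bases of Mettl6.

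Another 7 initiation genes supply membrane or encode readers of PI3P, the lipid the PI3-kinase makes. Of these 1 rose, the reader gene Wipi2, and 3 fell, where 30.3% of all genes rose and 31.9% fell. ATG9 proteins are lipid scramblases on the vesicles that seed the membrane, and both genes fell. Atg9b (chromosome 5, 24384181 to 24392143) had 1.5, 1.58 and 1.59 FPKM in low arginine, against 2.97, 3.20 and 2.93 FPKM in standard arginine. The low libraries were all beneath the standard ones, at a log2 change of -0.66 (SE 0.06, adjusted p 7.0e-06). Atg9a (chromosome 1, 75180860 to 75192196) had 6.79, 6.99 and 6.68 FPKM in low arginine, against 10.1, 11.0 and 8.97 FPKM in standard arginine. Its log2 change was -0.49 (SE 0.08, adjusted p 0.00025), also without overlap. Atg2a, a lipid transfer protein gene (chromosome 19, 6241668 to 6262335), had 3.49, 3.18 and 3.17 FPKM in low arginine, against 4.93, 4.56 and 4.32 FPKM in standard arginine. It fell by 0.39 on the log2 scale (SE 0.08, adjusted p 0.0014), whereas its paralog Atg2b was at -0.01 with a 95% interval of -0.19 to 0.17. Atg2a held 42.8 ± 2.01% of their summed FPKM in low and 51.0 ± 1.28% in standard arginine.

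Among the readers of PI3P, the lipid the kinase makes, Wipi2 rose. WIPI2 recruits the conjugation machinery, and its gene (chromosome 5, 142627698 to 142670588) had 15.3, 15.8 and 15.5 FPKM in low arginine, against 13.3, 13.4 and 12 FPKM in standard arginine. The groups were apart, with a log2 change of 0.25 (SE 0.06, adjusted p 0.0040). Wipi1, the most abundant initiation gene at 197 ± 14.8 FPKM under low and 196 ± 3.89 FPKM under standard arginine, was at 0.00 (95% interval -0.13 to 0.14). Under quantile normalization Wipi1 was called higher at 0.19 (adjusted p 0.012). Vmp1, an ER scramblase, was at 0.11 (95% interval -0.06 to 0.27) and was called in TPM.

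**Figure D2:**
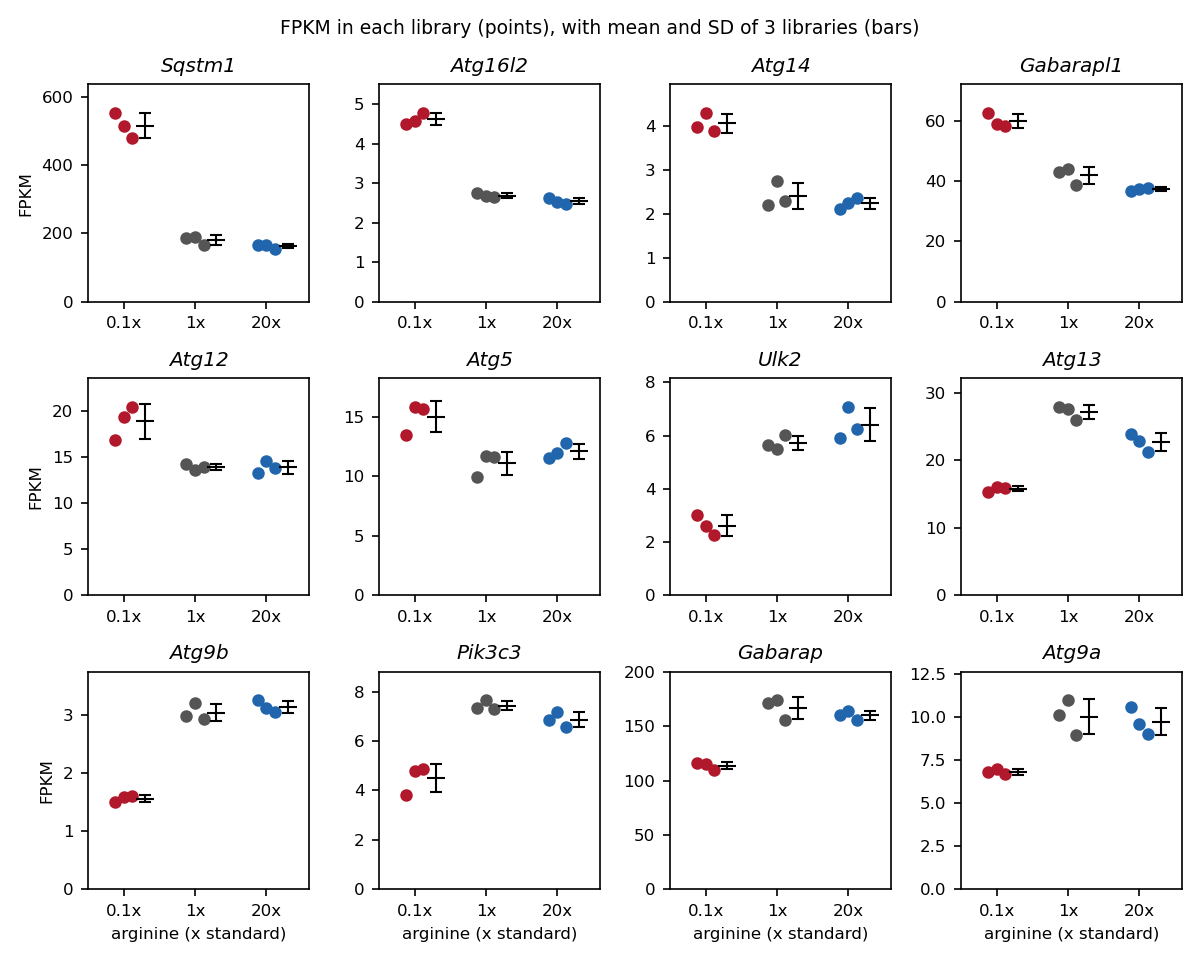
FPKM of 12 autophagy genes in each library against arginine concentration, with points for libraries and bars for the mean and SD of 3. Each linear axis starts at 0. The 0.1x libraries stand above the 1x libraries in Sqstm1, Atg16l2, Atg14, Gabarapl1, Atg12 and Atg5 and below them in Ulk2, Atg13, Atg9b, Pik3c3, Gabarap and Atg9a.

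Atg16l2, Atg12 and Atg5 had the largest rises among the conjugation genes. Of 11 tested, 4 rose, 2 fell and 5 were not called, with a median log2 change of 0.12, where 30.3% of all genes rose and 31.9% fell. In TPM 6 of the 11 rose and 1 fell, where 4843 of all 12300 genes rose and 3018 fell. Atg12, a ubiquitin-like protein gene (chromosome 18, 46732417 to 46741579), had 16.9, 19.4 and 20.5 FPKM in low arginine, against 14.3, 13.6 and 14.0 FPKM in standard arginine. Atg5, to which ATG12 is joined (chromosome 10, 44268358 to 44364291), had 13.5, 15.9 and 15.7 FPKM in low arginine, against 9.96, 11.7 and 11.6 FPKM in standard arginine. Both rose without overlap, by log2 changes of 0.41 (SE 0.07, adjusted p 0.00058) and 0.40 (SE 0.08, adjusted p 0.0013).

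The third partner of that module is an ATG16L protein, and its paralogs differed. Atg16l2 (chromosome 7, 101263034 to 101302251) had 4.5, 4.57 and 4.78 FPKM in low arginine, against 2.74, 2.67 and 2.64 FPKM in standard arginine. These libraries were tight and far apart, with a log2 change of 0.61 (SE 0.06, adjusted p 6.2e-06), the second largest rise among the members. Atg16l1, the form required for canonical autophagy, was at 0.12 (95% interval -0.04 to 0.28, adjusted p 0.16), but 0.20 (adjusted p 0.030) without standard replicate 2 and 0.26 (adjusted p 0.010) in TPM. Atg16l2 held 53.7 ± 0.497% of their summed FPKM in low and 43.0 ± 2.93% in standard arginine, so it went to the larger share.

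Of the 3 conjugating enzymes 1 was called, where 62.2% of all genes were. Atg7, the E1 enzyme of both conjugation systems, was at 0.02 (95% interval -0.13 to 0.17). Atg10, the E2 enzyme for ATG12, was at 0.17 (95% interval -0.04 to 0.38) and was called only without standard replicate 3 (0.27, adjusted p 0.025) or in TPM (0.31, adjusted p 0.042). Atg3, the E2 enzyme for ATG8 proteins, averaged 26.3 ± 1.72 FPKM under low and 30.4 ± 1.81 FPKM under standard arginine and was called lower at -0.20 (SE 0.08, adjusted p 0.043), though not in TPM at -0.08. That call was lost without low replicate 1 or 2, standard replicate 2 or 3 or high replicate 3, where the adjusted p was 0.058 to 0.15.

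ATG4 proteases trim ATG8 proteins before conjugation and release them afterwards. Of their 4 genes 1 rose, 1 fell and 2 were not called, where 30.3% of all genes rose and 31.9% fell. Atg4a (chromosome X, 140956907 to 141164270) had 2.92, 3.23 and 3.40 FPKM in low arginine, against 4.04, 4.46 and 5.18 FPKM in standard arginine. It fell with no overlap, by 0.41 on the log2 scale (SE 0.10, adjusted p 0.0054), and is uncertain because the copy Atg4a-ps is 99.3% identical over 2115 bases. Atg4b (chromosome 1, 93751500 to 93790610), the most active protease, had 8.30, 8.89 and 8.36 FPKM in low arginine, against 7.84, 7.70 and 6.84 FPKM in standard arginine. The rise was 0.17 (SE 0.06, adjusted p 0.034), and it was lost without low replicate 2 or 3, standard replicate 3 or high replicate 2, at an adjusted p of 0.051 to 0.12. Atg4c and Atg4d did not pass, at -0.08 (95% interval -0.22 to 0.06) and 0.01 (95% interval -0.12 to 0.14), and Atg4d shares 19.3% of its exonic bases with Kri1 on the other strand. The 4 together summed to 23.8 ± 0.403 FPKM under low and 24.3 ± 0.357 FPKM under standard arginine.

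**Figure D3:**
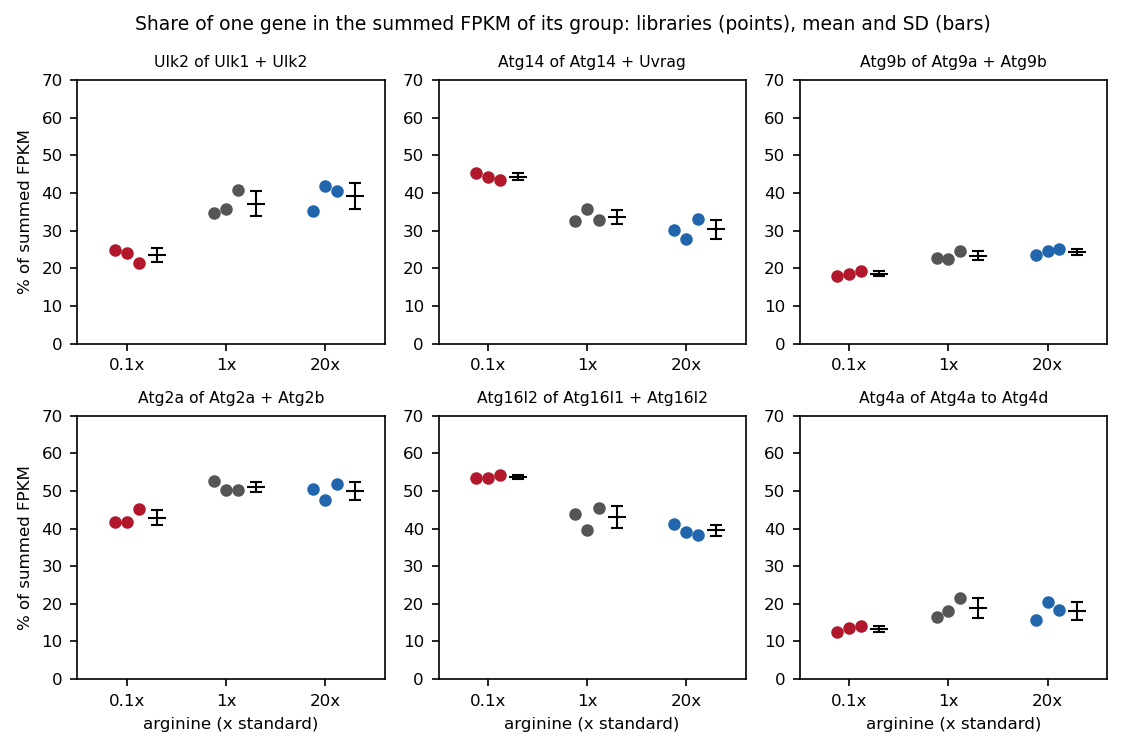
Share of 1 gene in the summed FPKM of its paralogs or alternative subunits, in percent, for each library (points) with the mean and SD of 3 (bars), against arginine concentration. Ulk2, Atg9b, Atg2a and Atg4a held a smaller share and Atg14 and Atg16l2 a larger share at 0.1x than at 1x, while 1x and 20x lay near each other.

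All 5 ATG8 family genes were called, 1 higher and 4 lower, where 30.3% of all genes rose and 31.9% fell. In TPM 1 of the 5 was called higher and 2 lower, where 4843 of all 12300 genes rose and 3018 fell. ATG8 proteins are the ubiquitin-like tags on the autophagosome membrane, in an LC3 and a GABARAP subfamily. Gabarapl1 (chromosome 6, 129533160 to 129542346) had 62.6, 58.9 and 58.3 FPKM in low arginine, against 42.9, 44.1 and 38.6 FPKM in standard arginine. Its paralog Gabarap (chromosome 11, 69991143 to 69994951) had 116, 116 and 110 FPKM in low arginine, against 171, 174 and 156 FPKM in standard arginine. The pair moved in opposite directions with no overlap in either, by 0.51 (SE 0.06, adjusted p 3.7e-05) for Gabarapl1 and by -0.55 (SE 0.06, adjusted p 1.4e-05) for Gabarap.

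The other ATG8 genes fell by less. Gabarapl2 (chromosome 8, 111940703 to 111953612) had 45.5, 48.8 and 49.9 FPKM in low arginine, against 53.3, 55.8 and 52.7 FPKM in standard arginine. Map1lc3a (chromosome 2, 155276297 to 155278073), which encodes LC3A, had 46.3, 45.6 and 42.2 FPKM in low arginine, against 60.2, 51.7 and 46.8 FPKM in standard arginine. Map1lc3b (chromosome 8, 121590361 to 121598760), which encodes LC3B, the usual marker of autophagosomes, had 10.7, 9.31 and 9.68 FPKM in low arginine, against 12.8, 13.3 and 12.1 FPKM in standard arginine. In each the low libraries lay below the standard ones, though barely so for Map1lc3a. The log2 changes were -0.16 (SE 0.05, adjusted p 0.022) for Gabarapl2, -0.23 (SE 0.09, adjusted p 0.043) for Map1lc3a and -0.34 (SE 0.06, adjusted p 0.00072) for Map1lc3b.

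Gabarapl2 and Map1lc3a were the weaker of these calls, and Map1lc3b has a close copy. In TPM Gabarapl2 was at -0.04 and Map1lc3a at -0.11, and neither was called. Without low replicate 1 or standard replicate 2 the adjusted p of Gabarapl2 was 0.078. Without any single low replicate, standard replicate 1 or 2 or high replicate 2 that of Map1lc3a was 0.055 to 0.17, and without standard replicate 1 its change was -0.14. A processed pseudogene, Gm6055, matches Map1lc3b at 99.6% over 282 bases and was listed at 18.6 to 20.3 FPKM in low, 27.5 to 30.4 FPKM in standard and 24.6 to 27.0 FPKM in high arginine, so reads of both entries may be mixed. Gm6055 is 378 bases long and Map1lc3b 7517, so these FPKM do not give the share of reads that may be mixed. Gabarapl2 has a copy of 99.4% identity, Gm3724, at a mean of 1.10 FPKM.

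The shares of Gabarapl1 and Gabarap in the ATG8 pool lay apart between low and standard arginine, and so did the summed level. Gabarapl1 was 21.7 ± 0.571% of the summed FPKM of the 5 genes in low and 12.7 ± 0.229% in standard arginine. Gabarap was 41.2 ± 0.421% in low and 50.9 ± 0.522% in standard arginine. The sum itself was 276 ± 5.59 FPKM under low and 329 ± 19.4 FPKM under standard arginine. It is not scaled to the FPKM of all genes, which summed to 336716 to 343486 in low and 354799 to 383847 in standard arginine. Gabarapl2 was 17.4 ± 1.14% under low and 16.4 ± 0.786% under standard arginine, Map1lc3a 16.2 ± 0.477% under low and 16.1 ± 1.38% under standard, and Map1lc3b 3.58 ± 0.232% under low and 3.88 ± 0.104% under standard. In high arginine the shares of Gabarapl1 and Gabarap were 12 ± 0.362% and 51.5 ± 0.750%.

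**Figure D4:**
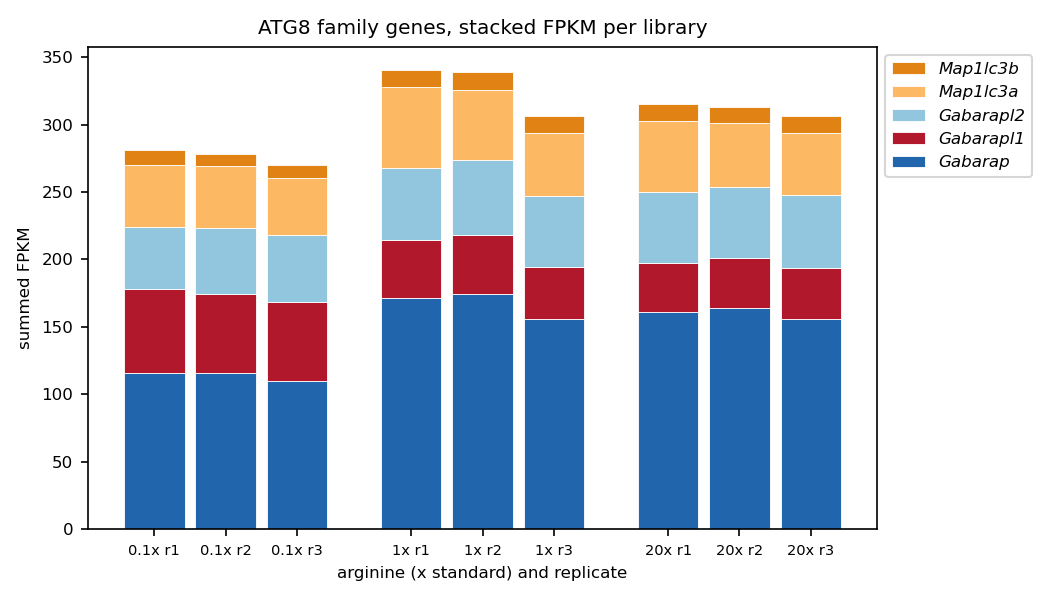
Stacked FPKM of the 5 ATG8 family genes in each of the 9 libraries, by arginine concentration and replicate (r1 to r3), on a linear axis from 0. The 0.1x bars are shorter, at a mean sum of 276 FPKM against 329 at 1x, with a wider Gabarapl1 band and a narrower Gabarap band. The FPKM of all genes also summed to less at 0.1x than at 1x.

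Receptor genes were dominated by Sqstm1. Its protein p62 binds ubiquitinated cargo and ATG8 proteins and is itself degraded by autophagy, and the gene (chromosome 11, 50199366 to 50210827) is also known as a target of NRF2. Sqstm1 had 553, 513 and 479 FPKM in low arginine, against 188, 191 and 165 FPKM in standard arginine. Every low library was far above every standard library. The log2 change was 1.5 (SE 0.07, adjusted p 7.1e-08), a 2.84-fold rise in FPKM + 1 at the 99.5th percentile of all genes tested. Sqstm1 took 90.1 ± 0.275% of the summed FPKM of the 6 receptor genes in low and 75.9 ± 2.04% in standard arginine.

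The other receptors changed less and not all one way. Of the 6, 3 rose, 1 fell and 2 were not called, where 30.3% of all genes rose and 31.9% fell. In TPM 4 of the 6 rose and 0 fell, where 4843 of all 12300 genes rose and 3018 fell. Tax1bp1, a ubiquitin-binding receptor (chromosome 6, 52713729 to 52766780), had 9.85, 7.59 and 8.13 FPKM in low arginine, against 6.36, 6.00 and 7.59 FPKM in standard arginine. The closest libraries almost touched, and the rise was 0.31 (SE 0.10, adjusted p 0.017). Calcoco1, a receptor for the ER and Golgi (chromosome 15, 102706777 to 102722178), had 6.07, 5.98 and 6.20 FPKM in low arginine, against 5.74, 5.08 and 4.49 FPKM in standard arginine, a rise of 0.22 (SE 0.08, adjusted p 0.032). Both calls depended on single libraries. That of Tax1bp1 was lost without low replicate 1 or standard replicate 1 or 2, at an adjusted p of 0.053 to 0.066. That of Calcoco1 was lost without any single low replicate or standard replicate 2 or 3, at 0.060 to 0.11.

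Nbr1, a receptor that works with p62, was the only one of the 6 called lower in FPKM. It averaged 23.9 ± 0.897 FPKM under low and 28.8 ± 1.94 FPKM under standard arginine, a log2 change of -0.26 (SE 0.07, adjusted p 0.0055), and was not called in TPM at -0.14. Optn, the mitophagy receptor optineurin, was at -0.00 (95% interval -0.17 to 0.16). Wdfy3, a scaffold for aggregate clearance, was at 0.16 (95% interval -0.03 to 0.35) and was called in TPM at 0.29 and with the replicate block at 0.16 (adjusted p 0.015).

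Other genes of the pathway, taken from lists of further initiation factors, selective receptors, fusion factors and upstream regulators, also moved both ways in low arginine. Of 9 further initiation factors 3 rose and 2 fell, with a median log2 change of 0.09, where 30.3% of all genes rose and 31.9% fell. Mtmr14, a phosphatase of PI3P, was at -0.38 (SE 0.08), Wdr45b, a relative of the WIPI proteins, at 0.25 (SE 0.06), Tmem41b, an ER scramblase, at -0.31 (SE 0.08) and Sh3glb1, a partner of UVRAG, at 0.16 (SE 0.05). All 4 passed, with an adjusted p of 0.0205 or less. Of 15 tested receptors for mitochondria, ER, ferritin and glycogen 3 rose and 5 fell, with a median of 0.06, beside the same shares of all genes. Bnip3, a mitophagy receptor induced by hypoxia, fell to 18.0 ± 1.14 FPKM in low, against 124 ± 20.5 FPKM in standard arginine, a log2 change of -2.71 (SE 0.10), and its relative Bnip3l was at -0.99 (SE 0.07). Stbd1, a receptor for glycogen, rose to 29.5 ± 3.07 FPKM in low, against 8.10 ± 0.841 FPKM in standard arginine, a log2 change of 1.74 (SE 0.09). Rtn3, an ER receptor, was at -0.30 (SE 0.06). Each of these 4 had an adjusted p of 0.00089 or less in limma.

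Fusion with the lysosome had 3 rises and 9 falls among 16 genes, with a median log2 change of -0.22, where 30.3% of all genes rose and 31.9% fell. Vps16, a core subunit of the HOPS tethering complex, was at -0.73 (SE 0.06), Plekhm1, which links HOPS to ATG8 proteins, at -0.53 (SE 0.06), Vps41, another HOPS subunit, at -0.49 (SE 0.06), and Fyco1, which moves autophagosomes along microtubules, at -0.43 (SE 0.07). Each had an adjusted p of 0.000224 or less in limma. Among 17 tested upstream regulators 8 rose and 2 fell, with a median of 0.23, beside the same shares of all genes. Ddit3, which encodes the stress factor CHOP, rose by 2.17 (SE 0.07), Deptor, an inhibitor of mTOR, by 0.99 (SE 0.08), Sesn2, a leucine sensor that restrains mTORC1, by 0.94 (SE 0.07) and Foxo1, a transcription factor restrained by insulin signalling, by 0.57 (SE 0.07). Each of these 4 had an adjusted p of 6.5e-05 or less. Tfeb, named here after its value was seen because its E-box was searched above, fell by 0.32 (SE 0.07, adjusted p 0.0026).

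High against standard arginine asked whether an excess changes the same genes. Limma called 0 of 39 members at a Benjamini-Hochberg adjusted p under 0.05, where 0.309% of all genes were called, and 5 members had an unadjusted p under 0.05, against 1762 of all 12300 genes. The changes ran from -0.25 to 0.14 with a median of -0.01, and the outermost bounds of the 95% intervals were -0.45 and 0.33. The smallest adjusted p was 0.11 for Atg13, with 23.9, 22.9 and 21.2 FPKM in high arginine, against 28.0, 27.6 and 26.0 FPKM in standard arginine. Its libraries did not overlap, and the log2 change was -0.25 (SE 0.06). The other 4 with an unadjusted p under 0.05 were Calcoco1 at -0.22, Gabarapl1 at -0.16, Atg10 at -0.24 and Ambra1 at -0.15.

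Between high and standard arginine 5 members, Gabarapl1, Atg13, Ambra1, Pik3c3 and Atg16l2, were lower in every high library than in any standard library, 0 were higher in this way and 34 overlapped. How often all genes tested separate in this way was not counted, so no trend is read from these 5, and limma called 0 members. Sqstm1 had 167, 165 and 155 FPKM in high arginine, against 188, 191 and 165 FPKM in standard arginine, and these ranges overlap. The change was -0.15 (95% interval -0.31 to 0.01, adjusted p 0.37). Ulk2 had 5.89, 7.09 and 6.25 FPKM in high arginine, overlapping 5.66, 5.50 and 6.01 FPKM in standard arginine, at 0.14 (95% interval -0.05 to 0.33). Gabarapl1 had 36.6, 37.4 and 37.8 FPKM in high arginine, against 42.9, 44.1 and 38.6 FPKM in standard arginine, a difference without overlap that did not pass (adjusted p 0.27). Of the further lists limma called 0 of 9, 0 of 15, 0 of 16 and 0 of 17 tested genes, where it called 0.309% of all genes. Of the listed genes 1, 4, 0 and 0 had an unadjusted p under 0.05. The largest of these was Bnip3, at -0.35 (adjusted p 0.19).

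High against low arginine tests whether the media at the ends of the range differ, and uses the same low and high libraries as above. Of 39 members 15 were higher and 11 lower in high arginine, against 61.5% of all genes called in either direction, 32.3% higher and 29.2% lower. In TPM 12 members were higher and 14 lower, and 39.5% of all calls were higher in place of 52.5%. Of all 12300 genes 3094 were higher and 4735 lower in TPM. The median change of the members in FPKM was 0.04, against 0.01 over all genes tested. Sqstm1 was lower at -1.66 (SE 0.07, adjusted p 3.9e-08), with Gabarapl1 at -0.67 (SE 0.06), Atg16l2 at -0.67 (SE 0.06) and Atg14 at -0.64 (SE 0.08). Ulk2 was higher at 1.03 (SE 0.09, adjusted p 2.8e-06), with Atg9b at 0.69 (SE 0.06), Pik3c3 at 0.52 (SE 0.08), Atg13 at 0.50 (SE 0.06) and Gabarap at 0.49 (SE 0.06). By step, 9 of 17 initiation genes were higher and 3 lower, 2 of 11 conjugation genes higher and 5 lower, 3 of 5 ATG8 genes higher and 1 lower, and 1 of 6 receptors higher and 2 lower.

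A few genes passed in this comparison and not in low against standard. Atg10 had 3.6, 3.57 and 3.20 FPKM in high arginine, against 5.28, 4.90 and 4.61 FPKM in low arginine, with no overlap and a log2 change of -0.41 (SE 0.10, adjusted p 0.0035). Ambra1 was lower at -0.20 (SE 0.06, adjusted p 0.015), though not without low replicate 2 or high replicate 3, at an adjusted p of 0.055 and 0.064. Ulk1 was higher at 0.20 (SE 0.08, adjusted p 0.049), and this call was lost without low replicate 2 or 3, standard replicate 2 or high replicate 1 or 2, at 0.061 to 0.17. The calls of Atg3 (0.21), Atg4b (-0.16) and Gabarapl2 (0.14) were also lost without single libraries, at an adjusted p of 0.053 to 0.15 for Atg3, 0.052 to 0.13 for Atg4b and 0.057 to 0.14 for Gabarapl2. Wdfy3, not called here at -0.12 (adjusted p 0.24), was called lower with the replicate number as a block (adjusted p 0.045) and in TPM at -0.25 (adjusted p 0.031). The libraries that ended the calls were low replicates 1 and 2 and high replicates 2 and 3 for Atg3, every library of low arginine and high replicates 2 and 3 for Atg4b, and low replicates 1 and 2, standard replicate 1 and every library of high arginine for Gabarapl2.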

How the data were processed

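Total RNA of MIN6 cells was made into directional libraries, per the labels' protocols. The deposited values are FPKM per gene with the gene length used, per the file headers. CASAVA 1.8, HISAT2 2.0.5 and featureCounts 1.5.0-p3 are named in the submitters' processing notes, which also name mm9. Of 54409 IDs shared with GENCODE M21, 98.3% have its GRCm38 coordinates, so GRCm38 is given. The sources used here name no strand setting.

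FPKM times gene length came in whole reads for 100% of values (within 0.05 reads). These reads served for depth, the check of replicates against sampling noise and the simulated data, and not for the limma tests. Genes with at least 1 FPKM in at least 3 libraries were analysed as log2(FPKM + 1), which understates changes of low genes, using limma (version 3.58.1, under R 4.3.3) with a variance trend and group as the only term, in 1 model of all 9 libraries. P-values are two-sided, adjusted by Benjamini-Hochberg over all 12300 genes. The code was tested on simulated data. Replicates differed beyond sampling noise (chi-square per degree of freedom 2.83 to 15.6). The members and lists were chosen with earlier results of these data known. Values in every library are given for called members with the largest changes, up to 10 each way, and for the ATG8 genes and Sqstm1, and up to 4 genes are named from each further list. Alternatives covered pseudocount, filter, scaling, libraries in the fit, a replicate block, a fold threshold and leaving out each library.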

Additional observations from a re-analysis of the deposited data

How the results depend on the processing

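In low against standard arginine, 10 of the 25 member calls were kept under each of the 17 alternatives that tested the gene, those of Sqstm1, Gabarap, Gabarapl1, Atg13, Atg9a, Pik3c3, Ulk2, Atg16l2, Atg14 and Atg9b. A further 8 were lost only with a fold threshold of 1.2 among the alternatives that tested them, which left 4 rises and 6 falls there and 5 higher and 4 lower members in high against low arginine. TPM, which is FPKM scaled by its sum in each library, gave 16 rises. That sum was 336716 to 343486 in low and 354799 to 383847 in standard arginine. The library size behind FPKM was 1.05 to 1.08 times the reads in genes in low and 0.962 to 1.02 times in standard arginine. What these differences contribute to the calls was not tested. Keeping only genes with a mean of 5 FPKM or more, which did not test Ulk2, Atg16l2, Atg14, Atg9b, Pik3r4, Atg2a or Atg4a, left 9 members higher in high than in low arginine. Gabarapl2 changed sign in high against low arginine under quantile normalization, at -0.0053 (adjusted p 0.93). Without single libraries there were 8 to 10 members higher and 12 to 15 lower in low against standard, 0 and 0 in high against standard, and 12 to 15 higher and 9 to 12 lower members in high against low arginine. In high against standard arginine 0 members were called under every alternative. With the replicate block the counts were 11 and 16, 0 and 0, and 15 and 12; equal numbers were not read as pairs over the 3 media, because 3 of 9 same-number pairs had a correlation of deviations not over 0.1, although all 3 pairs of high and low arginine did exceed it (0.153 to 0.243). Depth limits Atg10, Atg9b and Atg4a most, with 132, 155 and 204 reads in their poorest library.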
